A study of Mus musculus with 62 samples.

Results

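The tricarboxylic acid (TCA) cycle oxidizes acetyl-CoA in the mitochondrial matrix and hands the electrons to the respiratory chain. Neurons also use it to make glutamate and GABA from its intermediates. Malate dehydrogenase exists in a mitochondrial form, which closes the cycle, and a cytosolic form, which works in the malate-aspartate shuttle that carries reducing equivalents from glycolysis into the mitochondrion. The genes described here were chosen by name and found by their Ensembl identifiers, and they are 9 of the 11121 genes in the count table. Mdh1 encodes the cytosolic and Mdh2 the mitochondrial malate dehydrogenase. Cs encodes citrate synthase, which joins acetyl-CoA to oxaloacetate. Idh3a, Idh3b and Idh3g encode the subunits of the NAD-dependent isocitrate dehydrogenase, of which the alpha subunit is catalytic. Ogdh encodes the substrate-binding component of the 2-oxoglutarate dehydrogenase complex, Sucla2 the beta subunit of the ADP-forming succinyl-CoA synthetase, and Fh1 fumarase.

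The RNA came from dissected prefrontal cortex (PFC) or nucleus accumbens (NAc) tissue of male wild-type C57BL/6j mice aged 15 weeks. Unstressed control mice (CTR) gave 15 PFC and 16 NAc libraries. Mice put through multimodal chronic restraint stress (mCRS), a daily restraint whose duration and setting changed from day to day, gave another 15 PFC and 16 NAc libraries. No group carried a transgene or a drug treatment, the tissue was whole dissected region, and which PFC and NAc libraries came from the same mouse was not given in the sources used here. The libraries were made by BRB-seq, in which oligo-dT primers barcode each RNA before pooling, so that reads come from the 3′ ends of transcripts and splice forms that share an end are counted together.

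The 62 libraries held between 945286 and 4857359 counts and a count for between 69.7% and 97.4% of the genes. Marker genes matched the labelled regions: all 8 cortical excitatory markers had a log2 fold change below 0 in the NAc and all 9 striatal projection neuron markers one above 0. Library NAc CTR 7 stood apart, with a summed striatal marker level of 523 CPM (counts scaled to a common library size) against at least 3553 CPM in the other NAc CTR libraries, and so did NAc mCRS 10, with 24020 CPM of choroid plexus markers against at most 415 CPM in its group. PFC mCRS libraries had a count for 82.3% ± 6.22 of the genes (SD, n = 15) and PFC CTR libraries for 87.1% ± 4.42 (SD, n = 15). Counts of the mitochondrial DNA genes in the table made up 16.04% ± 3.64 of PFC mCRS libraries and 12.9% ± 3.004 of PFC CTR libraries.

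Each of the 9 genes had a count in every library. In the PFC they together took 0.321% ± 0.0402 of the counts of CTR libraries (SD, n = 15) and 0.356% ± 0.0449 of those of mCRS libraries (n = 15). In the NAc these shares were 0.302% ± 0.0378 (n = 16) and 0.304% ± 0.0381 (n = 16). The most counted was Mdh1 on chromosome 11 (GRCm38, 21556787 to 21572367, minus strand), with 225064 counts over all libraries, and the least counted Fh1 on chromosome 1 (175600374 to 175625635, minus strand), with 15514. Sucla2 lies on chromosome 14 (73525319 to 73596142, plus strand) and had 30029 counts. None of the 70-base windows in the last 500 bases of the genes' coding transcripts occurred in the transcripts of another gene. Exons of Mdh1 share 52 bases with Wdpcp and those of Idh3b 5 bases with Nop56, both on the opposite strand. The shared bases of Mdh1 lay outside the last kilobase of the gene, and those of Idh3b inside it. The strand setting of the counting was not given in the sources used here.

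Mdh1 and Sucla2 were the 2 genes of the set called lower in the NAc than in the PFC at an FDR (false discovery rate) below 0.05 by edgeR, and their promoters are shown for that reason. The sequences are RefSeq promoters on GRCm38.p6, running from 250 bases before to 50 bases after the annotated start. Capitals mark every match, on either strand, to the GC box GGGCGG, the CCAAT box CCAAT or the motif of nuclear respiratory factor 1 (NRF1), which reads GCGCA, any base, GCGC. The Mdh1 promoter is chr11:21571885-21572184 on the minus strand, and the Sucla2 promoter is chr14:73552536-73552835 on the plus strand, inside the span of the longest gene model.
Mdh1: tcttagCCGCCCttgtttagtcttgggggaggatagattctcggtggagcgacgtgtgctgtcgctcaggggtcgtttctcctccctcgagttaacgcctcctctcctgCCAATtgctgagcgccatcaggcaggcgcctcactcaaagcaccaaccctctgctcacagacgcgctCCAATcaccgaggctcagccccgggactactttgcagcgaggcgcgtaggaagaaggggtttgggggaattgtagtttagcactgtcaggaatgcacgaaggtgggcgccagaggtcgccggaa
Sucla2: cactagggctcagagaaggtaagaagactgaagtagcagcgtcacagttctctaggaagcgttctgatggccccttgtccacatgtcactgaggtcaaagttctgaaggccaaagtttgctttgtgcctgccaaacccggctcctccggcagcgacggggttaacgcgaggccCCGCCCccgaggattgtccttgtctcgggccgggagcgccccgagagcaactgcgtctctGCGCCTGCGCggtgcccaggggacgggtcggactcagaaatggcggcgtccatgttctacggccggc
The Mdh1 window held 1 GC box and 2 CCAAT boxes, and the Sucla2 window 1 GC box and 1 NRF1 motif; the matches did not overlap. Of the 32851 promoters in the same RefSeq table, 35.7% held a GC box, 37.4% a CCAAT box and 4.60% an NRF1 motif. All of the genes but Idh3a had a promoter entry, and 6 of these 8 held a GC box, 5 a CCAAT box and 1, Sucla2, an NRF1 motif in at least 1 entry. These counts are per gene and the shares above per promoter, so they are not directly comparable: Ogdh had 6 entries, of which 4 held a GC box.

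Mdh1 had the smallest FDR of the 9 genes between regions in mCRS mice. Its level, in CPM scaled by the trimmed mean of M values (TMM), ran from 996 through a median of 1419 to 2378 in PFC CTR libraries and from 949 through 1169 to 1464 in NAc CTR libraries. In mCRS mice it ran from 1165 through 2000 to 3625 CPM in the PFC and from 514 through 1146 to 1457 CPM in the NAc. The groups overlapped in both cases, but 15 of the 16 NAc CTR libraries lay below the PFC CTR median and all 16 NAc mCRS libraries below the PFC mCRS median, and 13 of the 15 PFC mCRS libraries lay above the highest NAc mCRS library.

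**Figure D1:**
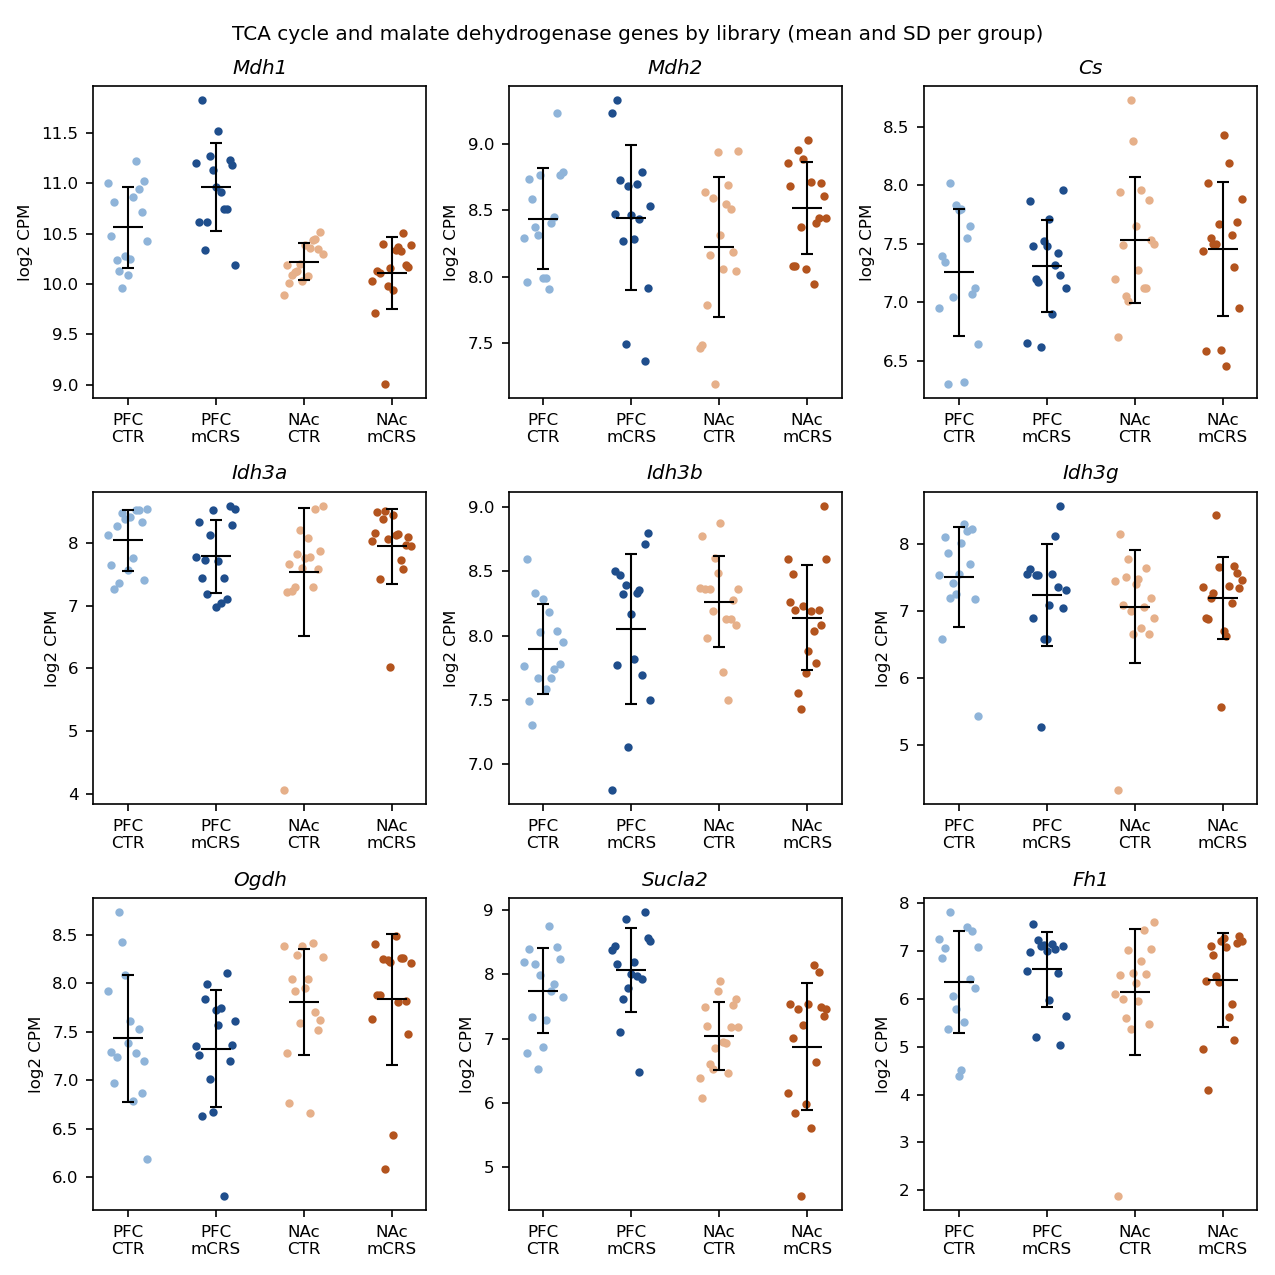
Level of each gene in every library as log2 CPM (y axis) in the 4 groups (x axis). Points are libraries, and the bar and whiskers are the group mean and SD (n = 15 per PFC group and 16 per NAc group). The means of Mdh1, Sucla2 and Idh3g are lower in both NAc groups than in both PFC groups. Those of Mdh1, Sucla2 and Fh1 are highest in PFC mCRS. Libraries of the groups overlap in all 9 genes.

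The fitted Mdh1 level in the NAc of mCRS mice was 0.54 times that in the PFC (95% confidence interval 0.46 to 0.64, log2 fold change -0.88, SE 0.12, FDR 2.75e-08). In CTR mice it was 0.77 times the PFC level (0.65 to 0.91, log2 fold change -0.38, SE 0.12, FDR 0.0439). These values come from edgeR's quasi-likelihood test over all 11025 genes tested, with the false discovery rate (FDR) of Benjamini and Hochberg. In mCRS mice the difference between the group means, 0.86 in log2 CPM, was larger than the SD of 0.36 within groups. In CTR mice it was 0.34, slightly below that SD. The Mdh1 call in CTR mice was lost under several alternatives, among them a covariate for the percentage of genes detected. In the 5 CTR libraries per region with the most genes detected, its median was 1206 CPM in the PFC and 1258 CPM in the NAc. In the 5 with the fewest it was 1860 and 1084 CPM. In mCRS mice these medians were 1931 and 1162 CPM with the most and 2401 and 1118 CPM with the fewest.

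Sucla2, whose product makes ATP directly in the cycle, was the other gene called lower in the NAc. It ran from 91.8 through a median of 231 to 432 CPM in PFC CTR and from 66.8 through 134 to 237 CPM in NAc CTR libraries. In mCRS mice it ran from 88.7 through 286 to 500 CPM in the PFC and from 22.7 through 154 to 283 CPM in the NAc. Again 15 of 16 NAc CTR libraries fell below the PFC CTR median and 16 of 16 NAc mCRS libraries below the PFC mCRS median, although both pairs of groups overlapped. The fitted NAc level was 0.48 times the PFC level in mCRS mice (0.35 to 0.67, log2 fold change -1.05, SE 0.24, FDR 0.00128 by edgeR) and 0.59 times in CTR mice (0.43 to 0.83, log2 fold change -0.75, SE 0.24, FDR 0.0439). The difference of group means in CTR mice, 0.71 in log2 CPM, was slightly below the SD of 0.73 within groups. Sucla2 also differed with the percentage of genes detected. In the 5 libraries of each group with the fewest genes detected its median was 301 CPM in PFC CTR, 286 CPM in PFC mCRS, 115 CPM in NAc CTR and 62.2 CPM in NAc mCRS mice. In the 5 with the most it was 116, 257, 144 and 176 CPM in the same order, so that among these CTR libraries the PFC median lay below the NAc median. With the percentage of genes detected in the model its log2 fold change between regions in CTR mice was -0.83 (FDR 0.0333), and in libraries with at least 80% of genes detected it was -0.72 (FDR 0.0263, edgeR).

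No member was higher in the NAc at an FDR below 0.05. The 2 of 9 genes called lower compare with 3.56% of all genes tested called lower in CTR mice (5.44% in either direction) and 3.86% in mCRS mice (6.49% in either direction). The median regional log2 fold change over the 9 genes was -0.19 among CTR mice, where it was 0.04 over all genes tested, and 0.02 among mCRS mice, where it was 0.06 over all genes tested.

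**Figure D2:**
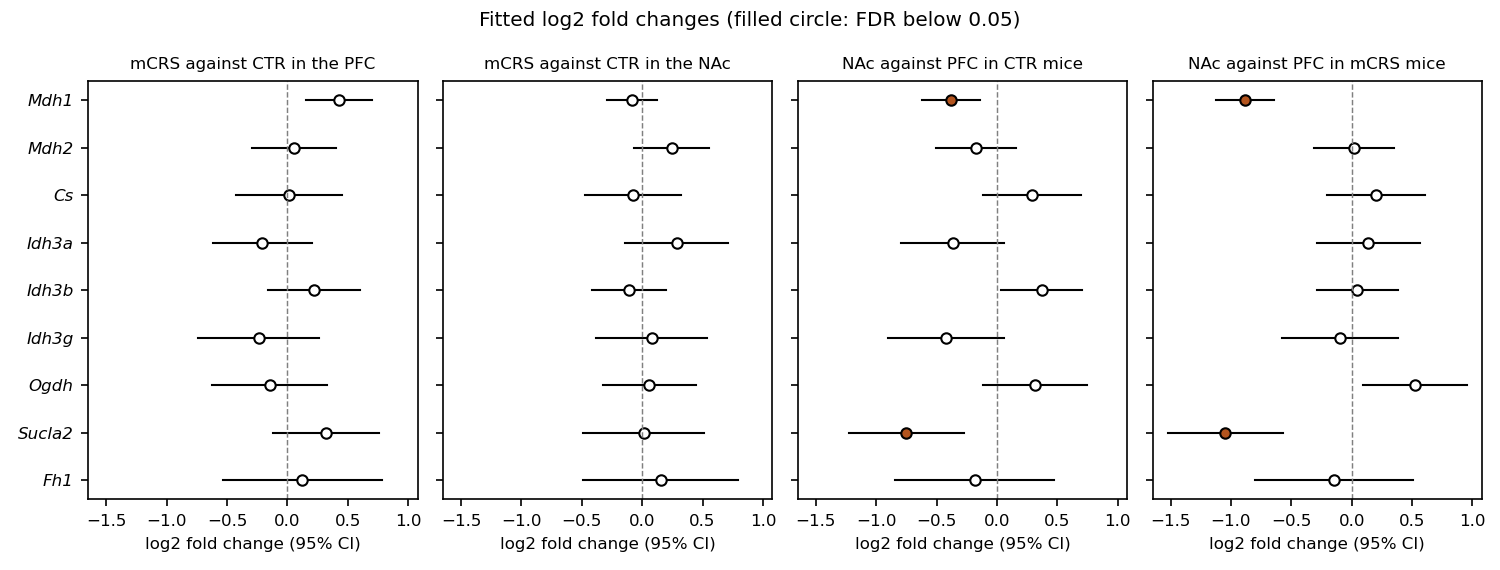
Fitted log2 fold change (x axis, point) with its 95% confidence interval (line) for each gene (y axis) in 4 comparisons, mCRS against CTR in each region and NAc against PFC in each treatment. Filled points have an FDR below 0.05: Mdh1 and Sucla2 in both comparisons of the regions, and no gene in the comparisons of mCRS with CTR.

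The calls in CTR mice were close to the threshold. Under the DESeq2 Wald test the FDR was 0.125 for Mdh1 and 0.0535 for Sucla2, and leaving out 1 library at a time ended at least 1 of the 2 calls in 22 of 62 cases, each time by the removal of a CTR library. In mCRS mice both calls held without any 1 library, and only that of Sucla2 was lost in one setting, the libraries numbered 9 and above (log2 fold change -0.80, FDR 0.142). The direction was the same in every setting tried for both genes.

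Cell types differ between these dissections, and in bulk tissue fewer cells of a type and less RNA per cell cannot be told apart. Summed cortical excitatory markers had a median of 1798 CPM (range 1380 to 2093) in PFC CTR and 317 CPM (118 to 530) in NAc CTR libraries. Summed striatal projection neuron markers had a median of 611 CPM (271 to 1278) in PFC CTR and 4964 CPM (523 to 8223) in NAc CTR libraries. Of the 6 oligodendrocyte markers 4 were higher in the NAc of CTR mice and 5 in that of mCRS mice at an FDR below 0.05, and of the 6 astrocyte markers 1 in each. No marker of these 4 lists was at 0 in any group. Of the 6 interneuron markers 2 were higher and 2 lower in the NAc in each treatment at an FDR below 0.05. Within the PFC, summed astrocyte markers had a median of 1549 CPM (1102 to 1725) in CTR and 1196 CPM (770 to 1541) in mCRS libraries. After mCRS 1 of these 6 markers had a log2 fold change above 0, and 0 passed an FDR of 0.05. The part of cell composition in the levels of Mdh1 and Sucla2 was not tested.

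The other 7 genes did not pass the test between regions. Mdh2, the mitochondrial counterpart of Mdh1, had a median of 337 CPM in PFC CTR and 304 CPM in NAc CTR libraries, and its interval in mCRS mice ran from 0.80 to 1.28 times the PFC level. Idh3b had a median of 218 CPM in PFC CTR and 318 CPM in NAc CTR libraries, with 14 of 16 NAc libraries above the PFC median, and an unadjusted p of 0.0324 (FDR 0.292, edgeR). Ogdh had a median of 164 CPM in PFC mCRS and 265 CPM in NAc mCRS libraries, with 14 of 16 NAc libraries above the PFC median, and an unadjusted p of 0.0171 (FDR 0.163, edgeR). With Mdh1 and Sucla2, 3 of the 9 genes had an unadjusted p below 0.05 in each treatment, where 13.3% of all genes tested did in CTR mice and 15.7% in mCRS mice. For Cs the interval ran from 0.92 to 1.62 times the PFC level in CTR mice and from 0.87 to 1.53 times in mCRS mice. For Fh1, whose counts were the fewest, it ran from 0.56 to 1.39 times and from 0.57 to 1.43 times. Its SE of 0.33 on the log2 scale in both treatments was the largest of the 9 genes. The ends of these intervals are not a detection limit, and larger changes could also have gone uncalled at this depth and spread.

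The isocitrate dehydrogenase subunits did not share one order of the groups. The mean log2 CPM of Idh3a was highest in PFC CTR (8.05 ± 0.48, SD, n = 15) and lowest in NAc CTR (7.54 ± 1.02, n = 16). That of Idh3b was highest in NAc CTR (8.26 ± 0.35, n = 16) and lowest in PFC CTR (7.89 ± 0.35, n = 15). That of Idh3g was highest in PFC CTR (7.51 ± 0.75, n = 15) and lowest in NAc CTR (7.07 ± 0.84, n = 16). In each of these 3 genes, neighbours in the order lay closer together than the SD within groups. The Idh3a to Idh3b ratio of counts within a library had a median of 1.28 in CTR and 0.798 in mCRS libraries of the PFC, and of 0.690 and 0.930 in those of the NAc, and its ranges overlapped in all groups.

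The levels after mCRS were compared within each region. In the PFC, 0 of the 9 genes and 0 of all 8916 genes tested (0%) were called at an FDR below 0.05 by edgeR, and DESeq2, which gave an adjusted p for 5 of the 9, called 0 of these. DESeq2 called 5 genes in all, 0.654% of those with an adjusted p, and gave none for 10357 genes. Mdh1 had the only unadjusted p below 0.05 among them, 1 of 9 where 3.52% of all genes tested reached it. It ran from 1165 through 2000 to 3625 CPM in PFC mCRS and, as above, from 996 through 1419 to 2378 CPM in PFC CTR libraries, with 13 of 15 mCRS libraries above the CTR median and 4 above the highest CTR library. The fitted level was 1.34 times that of CTR mice (95% confidence interval 1.11 to 1.62, log2 fold change 0.42, SE 0.14, p = 0.00311, FDR 0.806, edgeR). After correction for all genes tested this difference was not significant.

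In the PFC, Mdh1 was higher in libraries with fewer genes detected, a percentage that also depends on the total count of a library. Among PFC CTR libraries the 5 with the fewest genes detected had a median of 1860 CPM and the 5 with the most 1206 CPM; among PFC mCRS libraries these medians were 2401 and 1931 CPM. In the NAc they were 1084 and 1258 CPM in CTR and 1118 and 1162 CPM in mCRS libraries. The highest Mdh1 level of all, 3625 CPM, was that of PFC mCRS 3. When the percentage of genes detected entered the model, the log2 fold change in the PFC was 0.23 (p = 0.0923), and without PFC mCRS 3 it was 0.33. In the PFC libraries numbered 1 to 8 it was 0.65 (p = 0.00123) and in those numbered 9 and above 0.18 (p = 0.328).

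**Figure D3:**
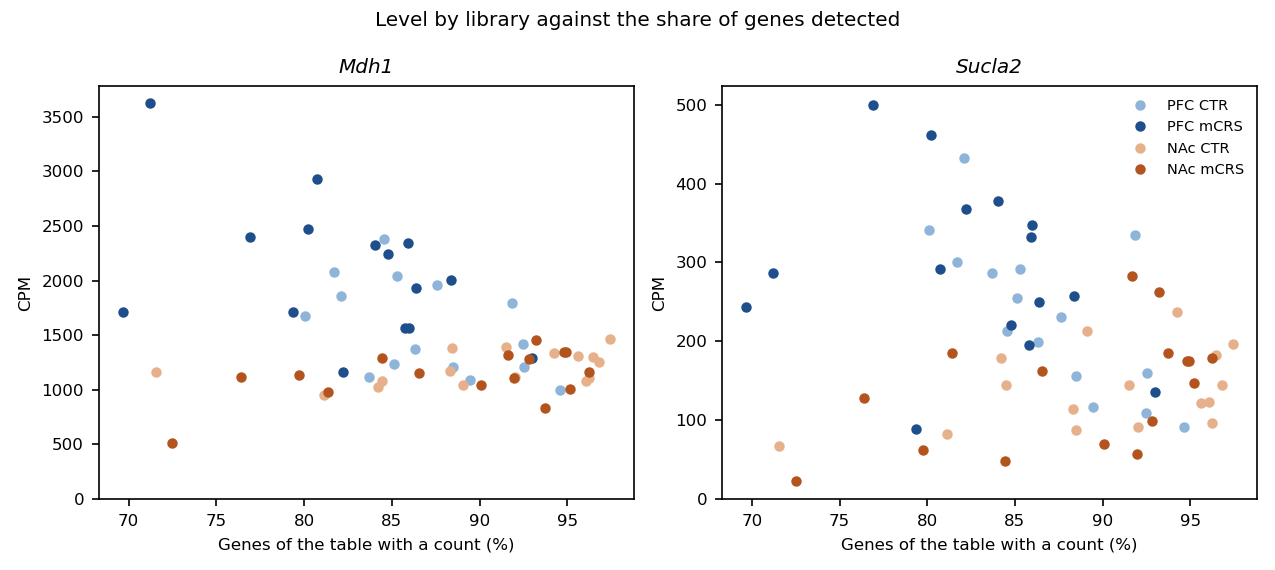
CPM of Mdh1 (left) and Sucla2 (right) in each library (y axis) against the percentage of the genes in the table with a count (x axis), coloured by group. The PFC libraries with the highest Mdh1 levels, up to 3625 CPM, lie among those with fewer genes detected, while NAc libraries stay at or below 1464 CPM over the whole range.

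The other 8 genes had wide intervals around 1 in the PFC. Sucla2 had medians of 231 CPM in CTR and 286 CPM in mCRS libraries and a fitted ratio of 1.25 (0.92 to 1.69, p = 0.154, edgeR). Idh3b had medians of 218 and 320 CPM, with a fitted ratio of 1.17 (0.89 to 1.52). Idh3a had medians of 309 and 212 CPM, with a fitted ratio of 0.87 (0.65 to 1.15). Mdh2 and Cs were nearest to no difference, with fitted ratios of 1.04 (0.81 to 1.32) and 1.01 (0.75 to 1.37). Of the 9 log2 fold changes 6 were above 0, and their median was 0.05 where that of all genes tested was -0.01.

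In the NAc, 0 of the 9 genes passed an FDR of 0.05 by edgeR or DESeq2 and 0 had an unadjusted p below 0.05; of all 10141 genes tested 1 was called (0.00986%) and 2.04% had an unadjusted p below 0.05. Mdh1 ran from 949 through 1169 to 1464 CPM in CTR and from 514 through 1146 to 1457 CPM in mCRS libraries, and the fitted ratio was 0.94 (0.82 to 1.09). This was the narrowest interval of the set in the NAc. The smallest p was that of Mdh2, with medians of 304 CPM in CTR and 368 CPM in mCRS libraries and a fitted ratio of 1.18 (0.95 to 1.47, p = 0.126, edgeR). The median log2 fold change of the 9 genes was 0.06, beside -0.01 for all genes tested.

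Whether the effect of mCRS differed between the regions was tested in all 62 libraries. None of the 9 genes passed an FDR of 0.05 by edgeR or DESeq2, where 0.00907% of the 11025 genes tested did. Mdh1 had the only unadjusted p below 0.05 among them, 1 of 9 against 3.09% of all genes tested: its mCRS effect was 0.50 higher on the log2 scale in the PFC than in the NAc (SE 0.17, 95% confidence interval 0.16 to 0.84, p = 0.00450, FDR 1.0). In the libraries numbered 9 and above that difference was 0.25 (p = 0.225). It equals the difference between the 2 regional fold changes of Mdh1 given above, so the larger regional gap in mCRS mice did not pass correction either.

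Ratios within a library do not depend on its total. The ratio of Mdh1 to Mdh2 counts had a median of 4.30 in CTR (range 2.80 to 7.76) and 5.08 in mCRS libraries (3.06 to 14.6) of the PFC. In the NAc it was 3.97 in CTR (2.14 to 8.06) and 3.02 in mCRS libraries (1.55 to 5.38). The ratio of Sucla2 to Suclg1, the alpha subunit with which it pairs, had medians of 1.22 and 1.48 in the PFC of CTR and of mCRS mice, and of 0.686 and 0.854 in their NAc. Both ratios are counts over counts and are compared between groups only. All groups overlapped in both ratios, and the Sucla2 to Suclg1 ratio spread most in the PFC, up to 18 in PFC CTR 5. That library had 432 counts of Sucla2, beside a group median of 488, so its high ratio rests on a low count of Suclg1.

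**Figure D4:**
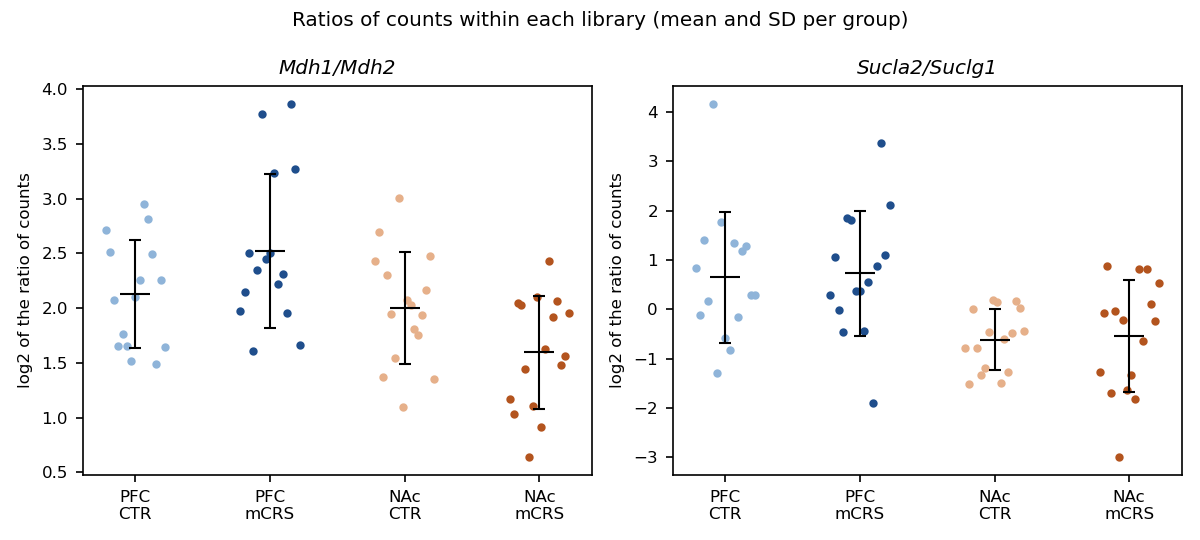
Log2 of the ratio of counts within each library (y axis) for Mdh1 over Mdh2 (left) and Sucla2 over Suclg1 (right) in the 4 groups (x axis). Points are libraries, and the bar and whiskers are the group mean and SD (n = 15 per PFC group and 16 per NAc group). The Sucla2 to Suclg1 ratio has a mean log2 above 0 in both PFC groups and below 0 in both NAc groups, with overlap.

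The rest of the pathway was read from 4 lists of genes. Among 11 other cycle enzymes, 10 were tested in the PFC; 0 passed an FDR of 0.05 after mCRS in either region. Sdha, the flavoprotein subunit of succinate dehydrogenase, had the only unadjusted p below 0.05 of all 4 lists in the PFC, where 3.52% of all genes tested reached it. It ran from 145 through 298 to 422 CPM in CTR and from 245 through 398 to 604 CPM in mCRS libraries, 6 of which lay above the highest CTR library (fitted ratio 1.35, 1.06 to 1.73, p = 0.0172, FDR 1.0, edgeR). Its mCRS effect was 0.58 higher on the log2 scale in the PFC than in the NAc (SE 0.23, p = 0.0148, FDR 1.0). The median log2 fold change after mCRS of the lists lay between 0.01 and 0.10 in the PFC and between -0.15 and 0.18 in the NAc, and none of their genes had an unadjusted p below 0.05 in the NAc.

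Between the regions, edgeR called 1 of the 11 other cycle enzymes in mCRS mice, where 6.49% of all genes tested were called in either direction. In CTR mice it called 0 of the 11, where 5.44% of all genes tested were called. The gene called in mCRS mice was Sdhc, which encodes a membrane anchor of succinate dehydrogenase. It ran from 25.8 through 133 to 318 CPM in PFC mCRS and from 90.8 through 280 to 477 CPM in NAc mCRS libraries, a fitted ratio of 2.01 (1.47 to 2.77, FDR 0.00117, edgeR). In CTR mice its ratio was 1.37 (FDR 0.366), and whether it differed between treatments was covered by the test of the mCRS effect between regions (p = 0.0886). DESeq2 also called 1 of the 11 other cycle enzymes in CTR mice, Sdha (log2 fold change 0.49, FDR 0.0332), which is named here after its values were seen. In that comparison DESeq2 called 6.72% of the genes with an adjusted p. Among the 11 tested genes of pyruvate entry, 2 were called lower in the NAc of mCRS mice, where 3.86% of all genes tested were, and 0 in that of CTR mice, where 3.56% were. In CTR mice 1 of the 11, Pdp1, was called in the libraries numbered 9 and above (FDR 0.0416) and in those with at least 80% of genes detected (FDR 0.0490). Of all genes tested, 3.45% and 6.27% were called in these 2 settings. Mpc2, a subunit of the mitochondrial pyruvate carrier, had medians of 427 CPM in PFC mCRS and 234 CPM in NAc mCRS libraries (ratio 0.61, 0.46 to 0.81, FDR 0.0166). Pdp1, a phosphatase that activates pyruvate dehydrogenase, had medians of 210 and 133 CPM (ratio 0.57, 0.40 to 0.80, FDR 0.0277), and its call was lost without PFC mCRS 1, 10 or 12 (FDR 0.119, 0.0554 and 0.0683).

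The 4 genes tested of the malate-aspartate shuttle, in which the product of Mdh1 works, held 0 calls between regions in either treatment. Of all genes tested, 5.44% were called in CTR and 6.49% in mCRS mice, so 0 calls among 4 genes carry little information. The median log2 fold change of the 4 genes between regions was 0.12 in CTR and 0.18 in mCRS mice.

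**Figure D5:**
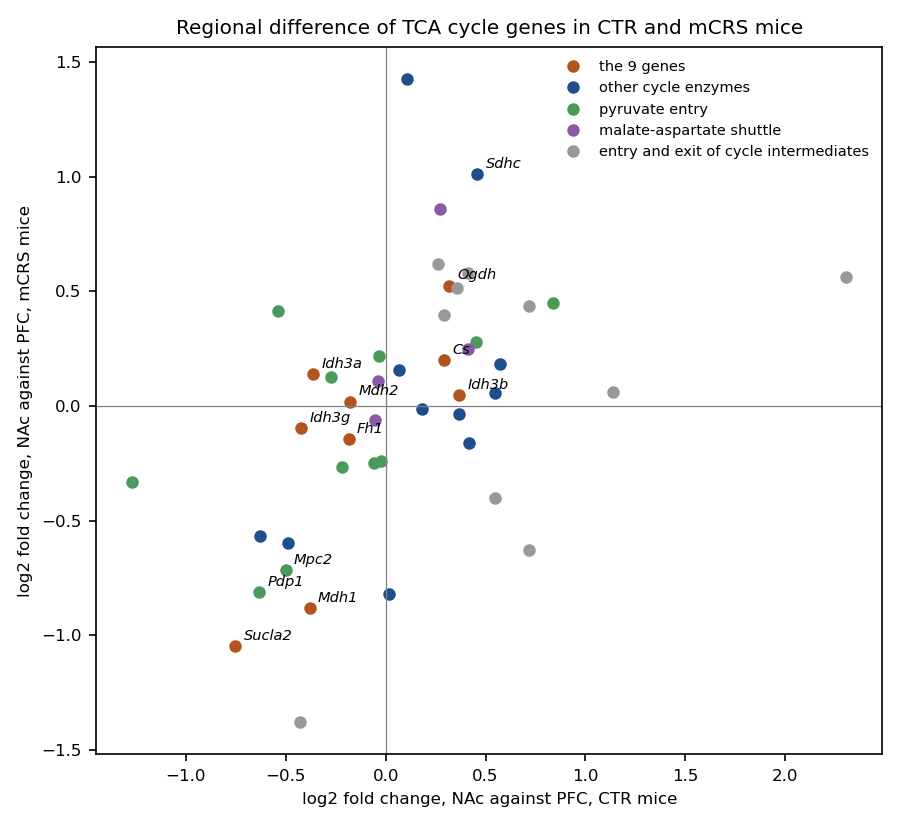
Log2 fold change of NAc against PFC in mCRS mice (y axis) against that in CTR mice (x axis) for the 9 genes and genes of the 4 pathway lists, 1 point per gene. The 9 genes and every plotted gene with an FDR below 0.05 in either treatment are named. Mdh1 and Sucla2 lie in the lower left with Mpc2 and Pdp1, and Sdhc in the upper right.

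The 9 genes did not vary as one unit from library to library. After subtraction of each group's mean, the 36 pairs of genes had a median Pearson r of 0.05 over the 62 libraries (range -0.35 to 0.47), beside a median of 0.01 for all pairs of genes with a mean level as high. The highest value was that of Mdh1 with Sucla2 (r = 0.47, Spearman rho 0.43) and the next that of Mdh2 with Fh1 (r = 0.44, rho 0.39). The lowest was that of Mdh2 with Idh3b (r = -0.35, rho -0.28). These are descriptions over libraries that were pooled and differ in depth, and the members of a pair can share both. The genes whose centred level was most like the mean of the 9 were Cdc42se1 (r = 0.67, rho 0.50), Cadps (r = 0.58, rho 0.31), Atp5c1 (r = 0.57, rho 0.37), Uqcrfs1 (r = 0.57, rho 0.47) and Rtraf (r = 0.56, rho 0.36), over 62 libraries. Without the 2 libraries farthest from the median of that mean, r was 0.59, 0.42, 0.31, 0.46 and 0.45 in the same order. Atp5c1, whose r of 0.31 without these 2 libraries was the lowest of the listed genes, encodes a subunit of ATP synthase. Uqcrfs1 encodes the Rieske protein of the cytochrome bc complex. The functions of Cdc42se1, which had the highest r, and of Cadps and Rtraf were not examined. Whether genes like Atp5c1 and Uqcrfs1 were more frequent in this list than among all genes was not tested.

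The precision differed between the genes. The biological coefficient of variation was 30.3% for Mdh1 and 36.3% for Mdh2, and it rose to 47.9% for Sucla2, 48.3% for Idh3g and 62.9% for Fh1. Single libraries fell far below their group in some genes: NAc CTR 1 had 24 counts of Idh3a where its group had a median of 706, and NAc CTR 2 had 20 counts of Idh3g and 3 of Fh1 where the group medians were 515.5 and 250.5. NAc mCRS 6 was the lowest of its group by CPM in Mdh1, Idh3b, Ogdh and Sucla2, with 544, 182, 71 and 24 counts, and the highest in Idh3a and Idh3g.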

How the data were processed

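BRB-seq libraries of PFC and NAc tissue from CTR and mCRS mice were analysed from the gene counts that the authors deposited. Per the labels and the study's methods, reads were aligned with STAR to mm10 and uniquely mapped reads were counted per gene with HTSeq (0.9.1 per the labels; the methods give another version); the authors left out 2 PFC samples of poor quality. No use of molecular identifiers is stated, so counts are reads and counting intervals would cover counting error only. The members and all gene lists were chosen with earlier results of these data known. Genes were named by Ensembl identifier (11120 of 11121 matched). edgeR 4.0.16 in R 4.3.3 tested the counts as deposited (TMM, filterByExpr by group, quasi-likelihood F test, Benjamini-Hochberg over all genes tested, threshold 0.05), PFC and NAc each alone for mCRS against CTR and all 62 libraries in 1 fit for the regional contrasts and the difference of mCRS effects. Standard errors are the absolute log2 fold change divided by the square root of F, and 95% intervals use the t distribution with the fitted degrees of freedom. Log2 CPM used a prior count of 2. The fit was tested on counts simulated from its own dispersions with independent libraries. Such counts cannot show how it behaves where both regions come from the same mice. Total counts ran from 945286 to 4857359 per library. Libraries are labelled as separate samples, and p-values measure the spread between them. The study took both regions from each mouse. Without the matching, the regional contrasts and the difference of mCRS effects treat PFC and NAc libraries as independent. No pair of replicates agreed within sampling noise. Alternatives were RLE or upper-quartile scaling, totals that leave out the mtDNA genes, 2 other filters, DESeq2 1.42.0, a covariate for the percentage of genes detected, the lower or higher library numbers alone, a replicate block, leaving out each library, and, chosen after seeing the data, leaving out NAc CTR 7 and NAc mCRS 10 or libraries with under 80% of genes detected. All 9 members were named in every comparison; other pathway genes were named, up to 3 per list, by smallest p among those with an FDR below 0.05, or in the mCRS comparisons with p below 0.05 where none passed. A result for a pathway gene is not reported here.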

Additional observations from a re-analysis of the deposited data

How the results depend on the processing

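The 2 genes called lower in the NAc of CTR mice, Mdh1 and Sucla2, kept their direction but not their calls: 0 of the 9 genes were called under RLE or upper-quartile normalization, DESeq2, the libraries numbered 1 to 8 or 9 and above alone, the replicate block, or without NAc CTR 7 and NAc mCRS 10, and 1 (Sucla2) with a covariate for the percentage of genes detected. Of all genes, 1.95% were called in numbers 1 to 8 and 3.45% in numbers 9 and above. In the other settings just named, between 5.02% (RLE) and 6.72% (DESeq2) were called. Leaving out 1 library at a time gave between 0 and 2 called genes. Neither gene was called without PFC CTR 1, 3, 10 or 14 or without NAc CTR 1, 2, 5, 6, 7, 10 or 16; Mdh1 alone lost its call without PFC CTR 11 or 12 or NAc CTR 3, 4 or 8, and Sucla2 alone without PFC CTR 5, 7 or 13 or NAc CTR 11, 12 or 13. Over all removals the FDR ran from 0.0179 to 0.109 for Mdh1 and from 0.0228 to 0.103 for Sucla2. In mCRS mice 1 gene (Mdh1) was called in the libraries numbered 9 and above, and 2 in every other setting. Of all genes, 5.3% were called in the libraries numbered 9 and above. In the other settings, removals of 1 library aside, between 2.5% (numbers 1 to 8) and 8.66% (DESeq2) were called. The cause of these shifts was not tested. The lower or higher numbers alone also hold fewer libraries, and that was not separated from other differences between the 2 ranges. RLE normalization moved the median log2 fold change of all genes tested from 0.04 to 0.11 in CTR and from 0.06 to 0.12 in mCRS mice. Of the pathway genes called in mCRS mice, Pdp1 lost its call in numbers 1 to 8 (FDR 0.629), with the covariate (FDR 0.0959), with the replicate block (FDR 0.170) and in libraries with at least 80% of genes detected (FDR 0.0619). Sdhc lost its call in numbers 1 to 8 (FDR 0.256) and Mpc2 in either range (FDR 0.155 and 0.261). No member was called in any setting in the mCRS comparisons or in the difference between regions.

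No pairing of the libraries by replicate number was seen. Correlations of same-numbered libraries after removal of group means lay between -0.03 and 0.05, none above 0.1. At most 2 libraries of a group correlated best with their own number. CTR and mCRS libraries came from different mice, so only the comparisons across regions bear on a shared mouse. No libraries known to share a mouse were available for comparison, so a pairing is not excluded. With the replicate block the log2 fold change of Mdh1 was 0.41 in the PFC, -0.11 in the NAc, -0.35 between regions in CTR mice (FDR 0.106) and -0.87 in mCRS mice; that of Sucla2 was -0.73 (FDR 0.101) and -1.22 between regions.

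Signs that changed belonged to genes that were not called. In the PFC mCRS comparison Cs was -0.016 under upper-quartile normalization, -0.0035 with the covariate and -0.13 in libraries numbered 1 to 8; Mdh2 was -0.013 with the covariate and -0.22 in those numbered 9 and above; Fh1 was -0.025 and -0.15 in the same 2 settings; and Ogdh was 0.35 in those numbered 9 and above. In the NAc mCRS comparison Sucla2 was -0.23 in libraries numbered 1 to 8 and -0.15 with the replicate block; Cs was 0.14, Fh1 -0.014 and Idh3b 0.089 in those numbered 9 and above; Cs was 0.0899 without the 2 libraries that stood apart; and Idh3g was -0.021 in libraries with at least 80% of genes detected. In the difference of mCRS effects Ogdh was 0.24 in libraries numbered 9 and above, Fh1 0.057 with the replicate block, and Cs -0.073 and Fh1 0.046 without the 2 libraries that stood apart. Between regions in CTR mice Fh1 was 0.12 in libraries numbered 9 and above. Between regions in mCRS mice Mdh2 was -0.0061 with the filter of at least 10 counts, -0.028 with the covariate and -0.15 in libraries numbered 1 to 8, Idh3g was 0.21 in the latter and 0.085 in libraries with at least 80% of genes detected, and Fh1 was 0.26 in those numbered 9 and above. With 1 library left out, the log2 fold change crossed 0 for Cs (-0.044 to 0.076) and Mdh2 (-0.032 to 0.12) in the PFC; for Cs (-0.16 to 0.036), Idh3g (-0.034 to 0.17) and Sucla2 (-0.093 to 0.094) in the NAc; for Cs (-0.023 to 0.17) and Fh1 (-0.16 to 0.081) in the difference of mCRS effects; and for Mdh2 (-0.035 to 0.094), Idh3b (-0.023 to 0.11) and Idh3g (-0.22 to 0.045) between regions in mCRS mice.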
